A study of Mus musculus with 6 samples.

Results

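Solute carriers are membrane proteins that move sugars, amino acids, ions, vitamins, nucleotides and metabolites across the plasma membrane or between the cytosol and organelles, and they are numbered by family. Families are defined by sequence, so a family number says roughly what its members carry, with exceptions. In the testis the Sertoli cells close the inner part of the seminiferous tubule off from blood. Germ cells there depend on carriers of lactate, glucose and amino acids, and sperm use ion exchangers of the flagellum to control motility. A row of the deposited expression table was taken when its symbol began with Slc or Slco, followed by a number, letters and a number, and when its mean over the 6 libraries reached 1 RPKM (reads per kilobase of gene length, scaled to the reads of the library). Of 384 rows with such a symbol, 134 reached that level, out of 38715 genes in the table and 15040 genes tested. Levels over all libraries chose these rows, so that they are expressed is no result. The rule did not use the difference between groups, but rows were chosen with earlier results of these data known.

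The libraries came from mouse testis and carry 2 group titles, Middle (3 libraries) and Control (3 libraries). The design text speaks of an MES-exposed group and a control group, and the series title places the exposure in early life. No other title exists, and Middle was therefore taken to be the exposed group. Strain, age, dose, route and whether a library held 1 animal or several were not found in the labels, so p-values measure the spread between these libraries, which may be technical.

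Libraries held 46649138 to 56435498 reads in Middle and 38820385 to 58389391 in Control. All 8 spermatid markers were measured, and the 3 kidney and 3 endothelial markers were each under 1 RPKM in every library. Of 4 epididymis markers 2 were in the table. Crisp1 was at most 0.0364 RPKM. Rnase10 was at 1.36 to 2.38 RPKM in Middle and 1.46 to 1.58 RPKM in Control. The 3 red blood cell markers summed to 11.2 to 15.9 RPKM in Middle and 9.63 to 12.8 RPKM in Control. Of them only Alas2 was without overlap, higher in Middle. Middle replicate 1 lay farthest out on the first principal component of all genes tested, which held 50.1% of the variance (-27.0, against -0.97 and -4.9 in the other Middle libraries and 6.48 to 15.01 in Control).

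The 134 rows covered a wide range of levels. Their median was 3.11 RPKM, a level that 36.1% of all tested genes did not exceed. There were 40 rows from 1 to under 2 RPKM, 47 from 2 to under 5, 29 from 5 to under 20, 13 from 20 to under 50 and 5 at 50 RPKM or more. The 10 most abundant rows held 48.7% of the summed RPKM of the set. Of the 250 rows below the level, 130 lay from 0.1 to under 1 RPKM and 120 under 0.1 RPKM. Just inside the limit stood Slc38a9 (mean 1.01 RPKM), Slc12a7 (1.01 RPKM) and Slc5a2 (1.01 RPKM). Just outside stood Slc22a3 (0.986 RPKM), Slc3a1 (0.977 RPKM) and Slc35f6 (0.968 RPKM). Every one of the 134 passed the filter of the test, which asked for 1 RPKM in the mean of either group, and 4 of them had 1 group mean below it. The symbol rule also takes in 2 genes that are not transporters, Slc4a1ap, which is named for binding an anion exchanger, and Slc7a6os, named for lying opposite Slc7a6, so 132 rows are carriers.

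**Figure D1:**
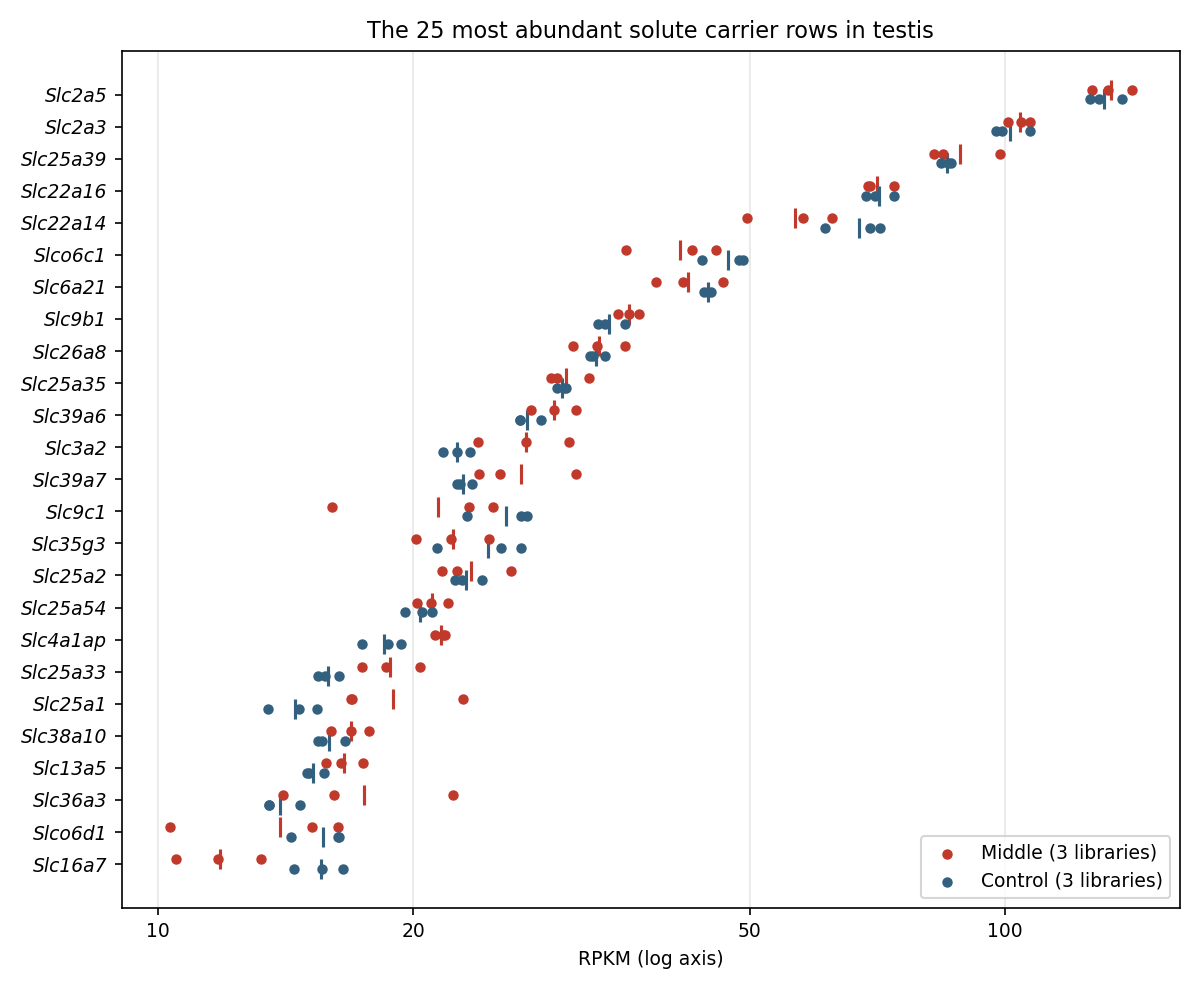
RPKM of the 25 most abundant solute carrier rows on a log axis, with 1 point per library (Middle red, Control blue) and a vertical tick at each group's mean. Slc2a5 stood highest in both groups, from 127 to 141 RPKM in Middle and from 126 to 138 RPKM in Control, and the groups overlapped for all 10 of the most abundant rows.

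Of the 10 most abundant rows, 8 had log2 fold changes between -0.079 (Slc6a21) and 0.074 (Slc9b1), and Slc22a14 (-0.25) and Slco6c1 (-0.19), which are described with the germ cell carriers, were lower in Middle. Slc2a5, which encodes a fructose transporter of intestine and sperm, was at 132, 141 and 127 RPKM in Middle and 129, 138 and 126 RPKM in Control. Its groups overlapped, with a log2 fold change of 0.026 (SE 0.065, 95% confidence interval -0.13 to 0.18; adjusted p = 0.825 by limma). Slc2a3, which encodes a glucose transporter of high affinity found in germ cells and neurons, was at 101, 107 and 105 RPKM in Middle and 97.8, 107 and 99.2 RPKM in Control. Its log2 fold change of 0.041 had a 95% confidence interval of -0.10 to 0.18. The intervals bound the size of a difference in these genes and do not show that there was none.

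Next in level was the mitochondrial glutathione carrier Slc25a39, at 98.8, 82.4 and 84.5 RPKM in Middle and 84.1, 86.5 and 85.6 RPKM in Control. Its Middle libraries lay on both sides of Control, with replicate 1 the highest of all 6 libraries. Slc22a16, a carnitine and organic cation transporter known from human testis, was at 68.9, 69.3 and 74.1 RPKM in Middle and 68.7, 74.03 and 70.3 RPKM in Control (log2 fold change -0.0047, 95% confidence interval -0.15 to 0.14). Slc9b1, a sodium-proton exchanger of the sperm flagellum, stood at 34.9, 35.95 and 36.99 RPKM in Middle and 33.7, 35.6 and 33.04 RPKM in Control. These groups overlapped too. Slc26a8, an anion transporter of sperm, was at 30.9, 35.6 and 32.99 RPKM in Middle and 32.7, 33.7 and 32.4 RPKM in Control. Slc6a21, of the neurotransmitter transporter family, averaged 42.3 ± 3.93 RPKM in Middle and 44.6 ± 0.435 RPKM in Control (SD, n = 3 each). The mitochondrial carrier Slc25a35 averaged 30.3 ± 1.705 RPKM in Middle and 30.03 ± 0.388 RPKM in Control (SD, n = 3 each). It shares 31.3% of its exon bases with Rangrf on the opposite strand (84.96 RPKM), and how reads in shared exons were counted is not known here.

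No solute carrier passed the test between Middle and Control, and the differences were small. The highest log2 fold change was 0.35, for Slc25a1, and the lowest was -0.37, for Slc16a7. These are on the scale of log2(RPKM + 1), which understates the change of low genes, so the top row depends on it. By the ratio of group means, Middle over Control, Slc48a1 was highest (1.37, against 1.30 for Slc25a1). Slc16a7 was lowest by that ratio too (0.761). Limma with a trend in the prior variance, adjusted by Benjamini-Hochberg over all 15040 genes, called 0 of the 134 rows at an adjusted p under 0.05. It called 0.0532% of all genes at that level, 0.00665% higher and 0.0465% lower in Middle. The smallest adjusted p of a row was 0.178, and limma-voom on reads recovered from the RPKM values also called 0. An unadjusted p under 0.05 was reached by 20 rows (14.9%, against 20.7% of all genes), 17 higher and 3 lower in Middle. The higher rows were 12.7% of the set, against 11.7% of all genes, and the lower rows were 2.24%, against 9.02% of all genes. With median-of-ratios scaling of the libraries the split was 12 higher and 6 lower, beside 8.398% and 11.4% of all genes. The number of higher rows was 10 without Middle replicate 1, 7 without Control replicate 1, 10 without Control replicate 2 and 8 without Control replicate 3, and the share of all genes was lower in these fits too (8.43%, 4.402%, 8.88% and 7.84% in the same order). That of lower rows was 6 without Middle replicate 2, 2 without Middle replicate 1, 2 without Control replicate 2 and 1 without Control replicate 1, beside 11.2%, 7.799%, 8.41% and 5.199% of all genes in the same order.

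More of the rows lay higher than lower in Middle. The median log2 fold change was 0.049, against 0.027 for all genes tested, and 87 of the 134 (64.9%) lay above 0, against 55.9% of all genes. All 3 Middle libraries stood above all 3 Control libraries for 33 rows (24.6%, against 17.9% of all genes) and below them for 8 rows (5.97%, against 11.4% of all genes). Under median-of-ratios scaling these were 24 rows (17.9%) and 8 rows (5.97%), beside 14.3% and 14.4% of all genes, and the median of all genes moved to 0.0013. No test was made of the set as a whole. Across the 134 rows, which share the same 6 libraries, level and fold change were nearly unrelated (Spearman's rho -0.01). Reads of the rows summed to 0.523% to 0.535% of a library in Middle and 0.513% to 0.534% in Control, ranges that overlap.

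**Figure D2:**
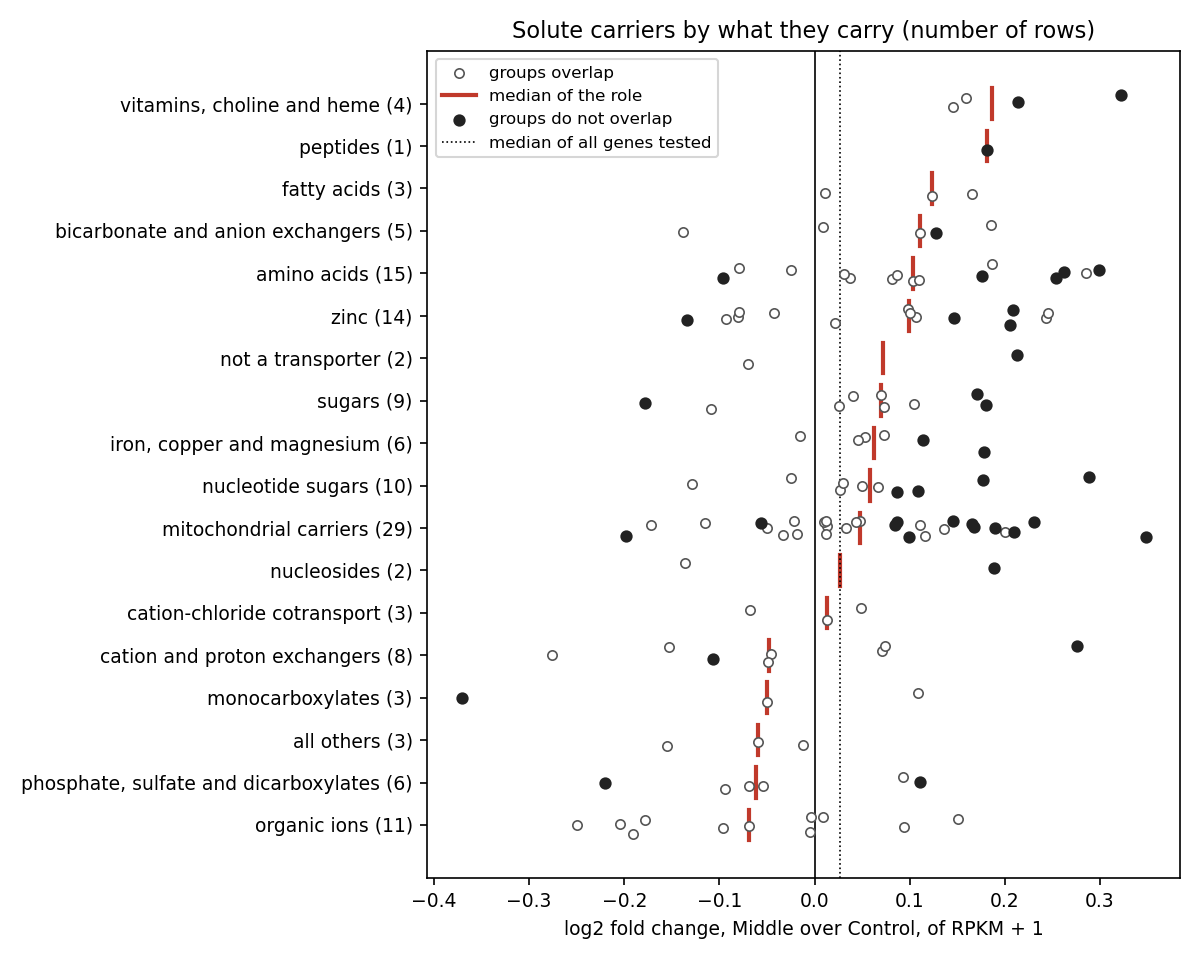
Log2 fold change (Middle over Control, of RPKM + 1) of each of the 134 rows, grouped by what the family carries, with the number of rows in brackets. Filled points are rows whose groups do not overlap, the red bar is the median of the role and the dotted line is the median of all genes tested (0.027). Amino acid carriers have a median of 0.10 and organic ion carriers one of -0.069, and each role holds rows on both sides of 0 except the vitamin, peptide, fatty acid and unsorted rows.

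Amino acid carriers lay mostly higher in Middle. Of 15 rows 12 were above 0 (median 0.10), 3 of them with an unadjusted p under 0.05, and 0 passed the test, where 55.9% of all genes lay above 0 and 11.7% were higher at such a p. The median was 0.065 without Middle replicate 1, and with a GC trend removed it was 0.036, with 10 rows above 0 and 5 below. Slc7a5 encodes the light chain of a carrier of large neutral amino acids, and Slc3a2 the heavy chain that brings it to the membrane. Slc7a5 (GRCm39 chromosome 8, 122607889 to 122634433) was at 16.3, 12.7 and 13.9 RPKM in Middle and 10.98, 11.5 and 11.7 RPKM in Control. All its Middle libraries were above all its Control libraries, with replicate 1 the highest (log2 fold change 0.30, SE 0.091; limma adjusted p = 0.178). Slc3a2 (GRCm39 chromosome 19, 8684246 to 8700733) was at 30.6, 27.2 and 23.8 RPKM in Middle and 21.7, 23.3 and 22.6 RPKM in Control, again without overlap (log2 fold change 0.25, SE 0.092; limma adjusted p = 0.199). The lowest Middle library of Slc3a2 lay close to its highest Control library.

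A second light chain, Slc7a8, was at 2.54, 2.74 and 1.997 RPKM in Middle and 1.84, 1.78 and 1.91 RPKM in Control (log2 fold change 0.26, SE 0.096). Middle replicate 3 stood just above Control and the other Middle libraries well above. Slc7a1, the carrier of arginine and lysine, was at 1.58, 1.599 and 1.59 RPKM in Middle and 1.097, 1.45 and 1.34 RPKM in Control, so its Middle libraries were close together. Slc36a3, of the family of proton-coupled amino acid carriers, was at 22.3, 14.03 and 16.1 RPKM in Middle and 13.5, 13.5 and 14.7 RPKM in Control, with 1 high library and overlapping groups (log2 fold change 0.29). In the other direction, Slc38a9, the lysosomal arginine sensor that signals to mTORC1, was at 0.856, 0.951 and 1.03 RPKM in Middle and 1.08, 1.06 and 1.104 RPKM in Control, without overlap. The 6 rows of the role that are not named elsewhere had log2 fold changes from 0.031 (Slc7a6) to 0.11 (Slc6a9).

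Mitochondrial carriers, family 25, were the largest family, with 29 of 48 rows at the level. Of these 21 lay above 0 and 8 below (median 0.048), 10 were higher and 2 lower in Middle without overlap, and 0 passed the test. Of all genes tested 55.9% lay above 0, 17.9% were higher and 11.4% lower without overlap. Under median-of-ratios scaling 17 rows lay above 0 and 12 below (median 0.015), and the median was 0.097 without Middle replicate 2 and 0.079 without Middle replicate 3. Slc25a1, which exports citrate from mitochondria for lipid synthesis, was at 22.9, 16.9 and 16.9 RPKM in Middle and 13.5, 15.4 and 14.7 RPKM in Control (GRCm39 chromosome 16, 17743087 to 17746083; log2 fold change 0.35, SE 0.12; limma adjusted p = 0.192). Middle replicate 1 stood well above the other libraries, and without it the log2 fold change was 0.21. Slc25a33, a carrier of pyrimidine nucleotides, was at 20.4, 17.4 and 18.6 RPKM in Middle and 16.3, 15.5 and 15.7 RPKM in Control (log2 fold change 0.23, SE 0.072; limma adjusted p = 0.179). It shares 14.9% of its exon bases with Gm13068 on the opposite strand (15.96 RPKM).

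Slc25a44, which takes branched-chain amino acids into mitochondria, was at 4.14, 3.62 and 3.59 RPKM in Middle and 3.05, 3.26 and 3.07 RPKM in Control. Slc25a10, the dicarboxylate carrier, was at 6.47, 6.52 and 6.18 RPKM in Middle and 5.902, 5.45 and 5.398 RPKM in Control. Both had an unadjusted p under 0.05 and groups that did not overlap. The iron importer Slc25a37 was lower, at 2.31, 2.097 and 2.29 RPKM in Middle and 2.55, 3.21 and 2.41 RPKM in Control (log2 fold change -0.20, and -0.11 without Control replicate 2). The ATP-Mg and phosphate carrier Slc25a25 was lower too, at 3.08, 2.99 and 2.96 RPKM in Middle and 3.103, 3.27 and 3.15 RPKM in Control. Its highest Middle library, at 3.08 RPKM, lay just under its lowest Control library. The ornithine carrier Slc25a2 averaged 23.4 ± 2.36 RPKM in Middle and 23.1 ± 0.915 RPKM in Control (SD, n = 3 each), and Slc25a54 averaged 21.1 ± 0.896 RPKM in Middle and 20.4 ± 0.765 RPKM in Control (SD, n = 3 each).

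The ADP/ATP carriers exchange ATP made in mitochondria for cytosolic ADP. Slc25a31 encodes the form of male germ cells, needed in mice for meiosis, while Slc25a5, on the X chromosome, and Slc25a4 are forms of other tissues. Slc25a31 was at 4.43, 4.15 and 5.08 RPKM in Middle and 4.19, 5.14 and 4.54 RPKM in Control, with full overlap (log2 fold change -0.019, 95% confidence interval -0.24 to 0.20). Slc25a4 was at 8.63, 7.07 and 7.53 RPKM in Middle and 7.54, 7.47 and 7.94 RPKM in Control, with overlap. Slc25a5 was at 6.26, 5.46 and 5.79 RPKM in Middle and 4.73, 5.26 and 5.29 RPKM in Control, higher without overlap (log2 fold change 0.17, SE 0.076; limma adjusted p = 0.259). These genes are similar in sequence, and the treatment of reads that match several places is unknown here, so the split of reads between them is uncertain.

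Monocarboxylate carriers, family 16, move lactate and pyruvate, and Sertoli cells feed lactate to germ cells. Slc16a7, which encodes a carrier with a high affinity for pyruvate and lactate, was at 10.5, 13.2 and 11.8 RPKM in Middle and 15.6, 14.5 and 16.5 RPKM in Control (GRCm39 chromosome 10, 125055139 to 125225334). No Middle library reached the lowest Control library, and the ratio of means was 0.761 (log2 fold change -0.37, SE 0.093; unadjusted p = 0.00438, adjusted p = 0.178 by limma). Its log2 fold change was -0.29 without Middle replicate 1 and -0.24 after removal of a GC trend within each library. The widely expressed carrier Slc16a1 lay on the other side, at 4.51, 4.998 and 5.12 RPKM in Middle and 4.38, 4.43 and 4.53 RPKM in Control, with overlap. Slc16a3, the lactate exporter of glycolytic cells, averaged 2.56 ± 0.123 RPKM in Middle and 2.69 ± 0.244 RPKM in Control (SD, n = 3 each). The other 11 rows of the family were below the level.

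**Figure D3:**
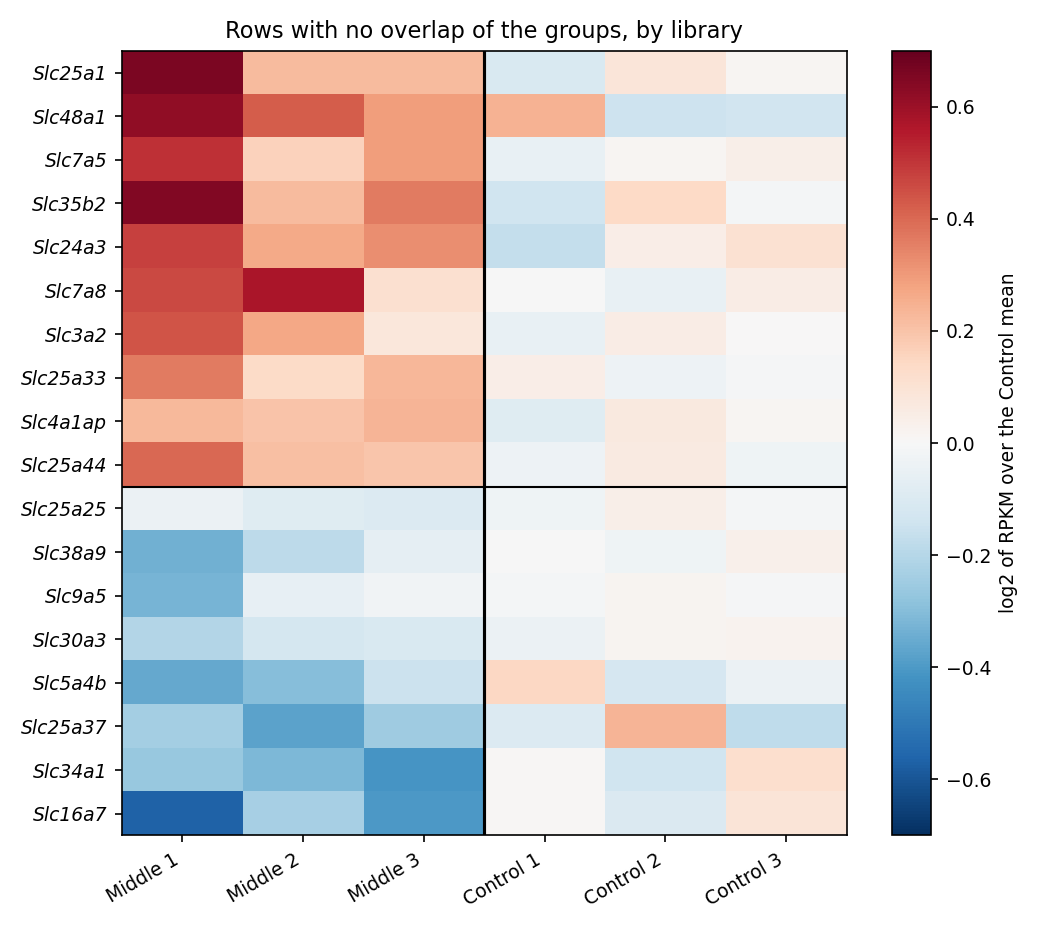
Log2 of RPKM over the Control mean in each library for the 10 higher and 8 lower rows with the smallest p among those whose groups do not overlap. Middle replicate 1 is the highest library in 8 of the 10 higher rows, such as Slc25a1 (22.9 RPKM, against 16.9 and 16.9 RPKM in the other Middle libraries), and rows were picked for their lack of overlap, so the split of the columns is by choice.

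Carriers with known roles in germ cells and sperm had mostly even or lower values in Middle. Of 16 listed genes 13 were at the level, 4 above 0 and 9 below (median -0.049). This list, and that of somatic carriers below, were chosen with earlier results of these data known, so the splits are descriptions. Without Middle replicate 1 the median was -0.0041, with 6 above 0 and 7 below, without Middle replicate 3 it was -0.086, and without Control replicate 1 -0.075. Slc22a14 and Slc16a7 had an unadjusted p under 0.05, both lower, and 0 passed the test. Of all genes tested 55.9% lay above 0 and 9.02% were lower at such a p. Slc22a14, a riboflavin transporter that mouse sperm need for motility, was at 49.6, 62.4 and 57.8 RPKM in Middle and 71.2, 69.4 and 61.4 RPKM in Control. Its highest Middle library lay just above its lowest Control library (log2 fold change -0.25, SE 0.098; limma adjusted p = 0.2204), and without Middle replicate 1 the log2 fold change was -0.16. Slc9c1, the sperm sodium-proton exchanger that acts with soluble adenylyl cyclase, was at 16.04, 24.9 and 23.3 RPKM in Middle and 26.9, 27.3 and 23.2 RPKM in Control. Middle replicate 1 was far below the other libraries, and the log2 fold change of -0.28 was -0.091 without it.

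The testis anion transporters of the Slco6 group were also lowest in Middle replicate 1. Slco6c1 was at 35.7, 42.7 and 45.6 RPKM in Middle and 48.5, 49.05 and 43.9 RPKM in Control. Slco6d1 was at 10.3, 15.2 and 16.3 RPKM in Middle and 16.3, 16.3 and 14.3 RPKM in Control. Both overlapped between groups, with a log2 fold change of -0.19 for Slco6c1 (-0.091 without Middle replicate 1) and -0.18 for Slco6d1 (0.0097 without it). Slco6b1 averaged 8.68 ± 1.91 RPKM in Middle and 10.1 ± 1.61 RPKM in Control (SD, n = 3 each). These 3 genes lie near each other on chromosome 1 and are related in sequence, so the split of reads between them is uncertain. Slc35g3, of the nucleotide sugar carrier family, was at 22.2, 20.2 and 24.6 RPKM in Middle and 25.4, 26.8 and 21.4 RPKM in Control, with overlap (log2 fold change -0.13, and -0.22 to -0.062 with 1 library left out). Slc9a8, an exchanger of the Golgi and acrosome, was at 1.11, 1.002 and 1.12 RPKM in Middle and 1.26, 1.09 and 1.105 RPKM in Control. The listed genes Slc26a3, Slc26a6 and Slc9b2 were below 1 RPKM in every library.

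Levels in whole tissue depend on which cells are present, and fewer cells of a type and less RNA per cell cannot be told apart here. All 8 spermatid markers lay below 0 in the same comparison (median -0.19), and their summed level was 26333 to 28796 RPKM in Middle and 28040 to 31042 RPKM in Control, with overlap. Prm2 (mean 12365 RPKM) and Tnp2 (6991 RPKM) held most of that sum. At an unadjusted p under 0.05 by limma 3 of the 8 were lower (against 9.02% of all genes), and 0 passed the test. Prm1 and Akap4 were lower without overlap. Of 5 spermatocyte markers 2 lay above 0 and 3 below, with sums of 641 to 761 RPKM in Middle and 755 to 767 RPKM in Control. Their part in the values of the germ cell carriers was not tested.

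Carriers known from somatic cells and blood vessels were mostly low. Of 10 listed genes 4 were at the level, 3 above 0 and 1 below (median 0.15, and 0.098 without Middle replicate 2), and 0 passed the test. Of all genes tested 55.9% lay above 0. The 4 genes were Slc7a5, Slc16a1, Slc6a6 and Slc38a5. The glutamine carrier Slc38a5 was at 1.404, 1.74 and 1.21 RPKM in Middle and 1.27, 0.993 and 1.18 RPKM in Control, with overlap. Slc6a6, the taurine carrier, averaged 2.802 ± 0.138 RPKM in Middle and 2.87 ± 0.259 RPKM in Control (SD, n = 3 each). The glucose transporter Slc2a1 of barrier cells was at 0.765, 0.862 and 0.839 RPKM in Middle and 0.566, 0.659 and 0.639 RPKM in Control. All its Middle libraries lay above Control, but it was below the filter and was not tested. Slc11a1, Slc40a1, Slco1a4 and Slc43a3 were at most 0.148 RPKM in any library, and Slc1a5 at most 0.352 RPKM. Of 7 Sertoli markers 5 were tested and all 5 lay above 0. The 7 summed to 185.5 to 194.9 RPKM in Middle and 174.7 to 180.4 RPKM in Control, most of it Clu (mean 139 RPKM), whose groups overlapped. The 3 peritubular markers also lay above 0, with sums of 39.3 to 51.3 RPKM in Middle and 35.2 to 40.04 RPKM in Control. Of 5 Leydig markers 2 lay above 0, Insl3 (log2 fold change 0.16) and Hsd3b1 (0.17), and 3 below (median -0.25). Only Star had groups that did not overlap. They summed to 267 to 280.5 RPKM in Middle and 235 to 283 RPKM in Control, most of it Insl3 (mean 225 RPKM). Star, which brings cholesterol into mitochondria, was at 3.96, 3.67 and 2.68 RPKM in Middle and 5.55, 4.85 and 7.002 RPKM in Control. Their part was not tested.

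Sodium and calcium exchangers had mixed directions. Of 8 cation and proton exchangers 3 lay above 0 and 5 below (median -0.047), and 0 passed the test. The median was -0.031 without Middle replicate 2 and -0.107 with a GC trend removed, the latter with 2 rows above 0 and 6 below. The 3 cation-chloride cotransporters had a median of 0.013, which was -0.0069 under median-of-ratios scaling. Slc24a3, which moves calcium and potassium against sodium, was at 3.98, 3.43 and 3.58 RPKM in Middle and 2.54, 2.95 and 3.08 RPKM in Control, without overlap (log2 fold change 0.28, SE 0.085; limma adjusted p = 0.178). Slc9a5, known as a sodium-proton exchanger of neurons, was lower without overlap, at 3.204, 3.86 and 3.95 RPKM in Middle and 3.99, 4.07 and 4.002 RPKM in Control. The second and the third of its Middle libraries lay near Control, and the log2 fold change of -0.11 was -0.033 without Middle replicate 1.

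Zinc carriers numbered 6 exporters of family 30 and 8 importers of family 39. Family 30 lowers and family 39 raises the zinc of the cytosol. Of the 14 rows 9 lay above 0 and 5 below (median 0.099), and 0 passed the test. Family 30 had 3 rows above 0 and 3 below (median -0.011). Family 39 had 6 above and 2 below (median 0.104), where 55.9% of all genes lay above 0. The median of the 14 rows was 0.052 without Middle replicate 1 and 0.054 with a GC trend removed, in both with 11 rows above 0 and 3 below. Slc39a6 was the most abundant, at 27.6, 29.4 and 31.1 RPKM in Middle and 26.7, 28.4 and 26.8 RPKM in Control, with overlap. Slc30a3, which fills vesicles with zinc, was lower in all Middle libraries, at 10.7, 11.3 and 11.4 RPKM in Middle and 11.9, 12.4 and 12.5 RPKM in Control (log2 fold change -0.13, SE 0.061; limma adjusted p = 0.257). Another vesicle exporter, Slc30a2, was higher without overlap and averaged 7.55 ± 0.682 RPKM in Middle and 6.4 ± 0.2502 RPKM in Control (SD, n = 3 each). Slc39a7, which releases zinc from the endoplasmic reticulum, was at 31.1, 23.9 and 25.3 RPKM in Middle and 22.7, 23.5 and 22.5 RPKM in Control. It shares most of its exon bases (80.7%) with Gm20427 on the same strand, so the reads of these genes cannot be told apart.

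Nucleotide sugar carriers, family 35, supply the Golgi with building blocks of glycans. Of 10 rows 8 lay above 0 (median 0.058), 4 were higher without overlap (against 17.9% of all genes) and 0 passed the test. Without Middle replicate 1 the split was 6 above and 4 below, and the median was 0.096 without Middle replicate 2, 0.037 without Control replicate 2 and 0.089 without Control replicate 3. Slc35b2, which carries the sulfate donor PAPS into the Golgi, was at 3.05, 2.26 and 2.4995 RPKM in Middle and 1.77, 2.14 and 1.92 RPKM in Control (log2 fold change 0.29, SE 0.10; limma adjusted p = 0.192). Slc35b1, which exchanges ATP and ADP at the endoplasmic reticulum, was at 5.13, 4.77 and 4.46 RPKM in Middle and 3.905, 4.26 and 4.18 RPKM in Control. Neither gene had overlapping groups, and Middle replicate 1 was the highest library of both.

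Of 9 rows of the families grouped as sugar carriers, Slc2a5 and Slc2a3 included, 7 lay above 0 (median 0.0699). With a GC trend removed 5 lay above 0 (median 0.018). Slc2a8, an intracellular glucose transporter of testis, was at 3.51, 3.17 and 3.13 RPKM in Middle and 2.74, 2.81 and 2.83 RPKM in Control, without overlap (log2 fold change 0.17, SE 0.0695; limma adjusted p = 0.227). Slc5a4b, of the sodium-glucose family, was lower, at 1.702, 1.77 and 1.96 RPKM in Middle and 2.41, 2.02 and 2.12 RPKM in Control. The families grouped as phosphate, sulfate and dicarboxylate carriers had 6 rows, 2 above 0 and 4 below. Slc34a1, the sodium-phosphate carrier of the kidney tubule, was at 1.89, 1.82 and 1.71 RPKM in Middle and 2.28, 2.07 and 2.47 RPKM in Control, without overlap (log2 fold change -0.22, SE 0.077; limma adjusted p = 0.194). It shares 11.7% of its exon bases with Pfn3 on the opposite strand (17.3 RPKM), and Pfn3 is a profilin of spermatids, so reads of Pfn3 may be counted in it.

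All 4 rows of the families grouped as vitamin, choline and heme carriers lay above 0, where 55.9% of all genes did. Roles went by family number, so the riboflavin transporter Slc22a14 (log2 fold change -0.25) was counted with the organic ion carriers. Other rows may also carry something other than their role says. Slc48a1, which moves heme out of lysosomes, was at 3.22, 2.81 and 2.56 RPKM in Middle and 2.48, 1.89 and 1.91 RPKM in Control (log2 fold change 0.32, SE 0.10; limma adjusted p = 0.183). Control replicate 1 lay close to its lowest Middle library. Of the 11 organic ion carriers (families 22 and 47 and Slco) 3 lay above 0 and 8 below, with a median of -0.069, and of -0.0058 (5 above, 6 below) without Middle replicate 1. Without another library it ran from -0.12 (without Middle replicate 2) to -0.038 (without Middle replicate 3), with -0.0397 without Control replicate 1. Slc29a1, the nucleoside transporter of most cells, was at 8.02, 7.27 and 7.003 RPKM in Middle and 6.24, 6.75 and 6.19 RPKM in Control, without overlap. Among the remaining roles, 4 of 5 bicarbonate and anion exchangers lay above 0, as did all 3 fatty acid carriers, 5 of 6 carriers of iron, copper and magnesium, the peptide carrier Slc15a4, 1 of 2 nucleoside carriers and 0 of 3 unsorted rows. Slc4a1ap, which is not a transporter, was at 21.7, 21.2 and 21.8 RPKM in Middle and 17.4, 19.4 and 18.7 RPKM in Control, with tight Middle libraries above all of Control (log2 fold change 0.21, SE 0.063; limma adjusted p = 0.178).

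Proteins that work beside the carriers were read from a list of 15, of which 14 were tested. Of these 10 lay above 0 and 4 below, with 3 higher and 2 lower at an unadjusted p under 0.05, and 0 passed the test. Of all genes 55.9% lay above 0, and 11.7% were higher and 9.02% lower at such a p. Bsg, the chaperone that brings lactate carriers to the membrane, was at 325, 289.5 and 291 RPKM in Middle and 266, 271 and 277 RPKM in Control. Atp1a4, the sodium pump subunit of sperm whose gradient drives sodium exchangers, was at 93.6, 116 and 103 RPKM in Middle and 143, 127 and 122 RPKM in Control (log2 fold change -0.33, SE 0.094; limma adjusted p = 0.178). Middle and Control were apart in both of these genes. Of the subunits of the mitochondrial pyruvate carrier, Mpc2 averaged 10.7 ± 0.483 RPKM in Middle and 12.2 ± 0.672 RPKM in Control and Mpc1 averaged 3.15 ± 0.148 RPKM in Middle and 2.72 ± 0.113 RPKM in Control (SD, n = 3 each).

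The direction of a row went with the base composition of its transcript. Across 133 rows with a transcript sequence, log2 fold change and GC content had a Spearman's rho of 0.42 and a Pearson's r of 0.47, against 0.35 and 0.32 across 14035 tested genes. Genes measured in the same libraries are not independent, so these are descriptions. The 33 rows that were higher without overlap had a median GC content of 53.5%, the 8 lower ones 48.6% and all rows 51.8%, while all tested genes had 49.3%. Among single genes, Slc16a7 had 37.7% and Slco6c1 37.1%, while Slc25a1 had 59.1% and Slc35b2 59.8%. A rank correlation between GC content and how far each gene of a library stood from its average gave 0.446, 0.0277 and -0.0704 in Middle replicates 1 to 3 and -0.294, -0.216 and -0.247 in Control replicates 1 to 3. Every Middle value was above every Control value, and the GC trend and the group therefore cannot be told apart. Of 84 tested ribosomal protein genes 83 lay above 0 (median 0.24). They had been listed as a sign of RNA quality, but no direct measure of RNA quality was used here, and their part was not tested. After a GC trend was removed within each library, the median log2 fold change was 0.028 over the rows and 0.018 over all genes.

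**Figure D4:**
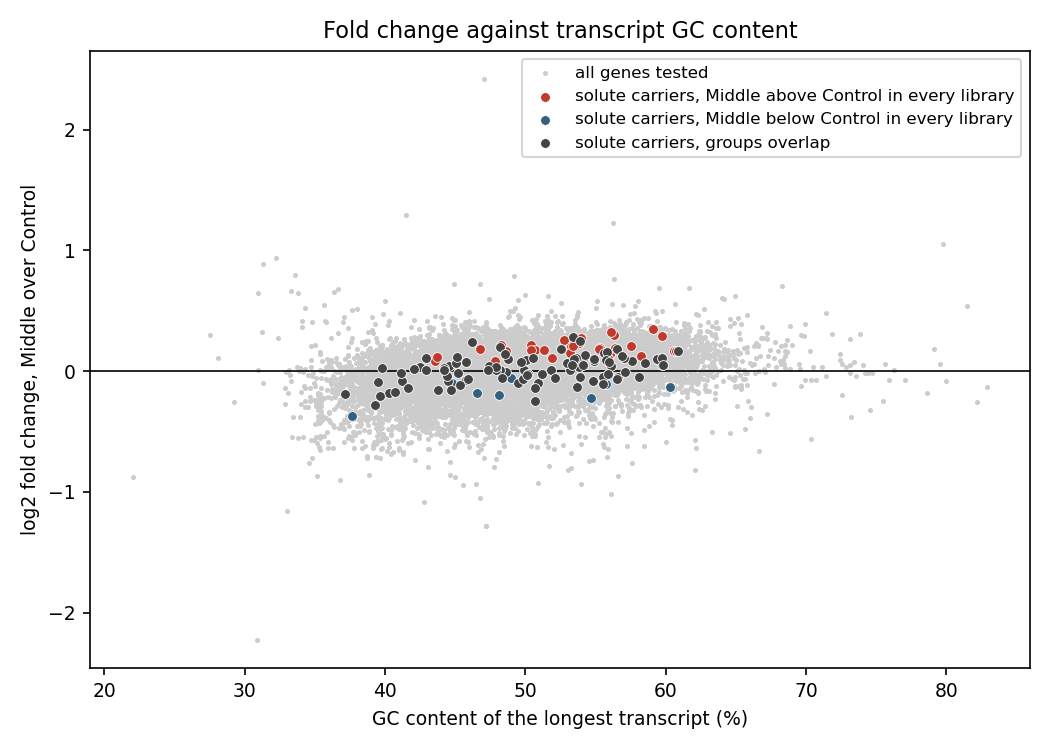
Log2 fold change (Middle over Control, of RPKM + 1) against the GC content of the longest transcript, for all genes tested (grey) and for 133 solute carrier rows coloured by whether the groups overlap. The rows that are higher without overlap (red) have a median GC content of 53.5% and those that are lower without overlap (blue) 48.6%.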

How the data were processed

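RNA-seq of mouse testis was analysed in 6 libraries, grouped by their titles. The submitters' processing notes name fastp 0.23.0 and GRCm39. Aligner, counter, strand setting and the treatment of reads with several matches are unknown here. The deposited table holds RPKM values that the authors computed for each gene. Every value, times gene length, was a whole multiple of 1 step per library (100%, tolerance 0.001), which gives reads and depth. Replicates differed by more than sampling noise (chi-square per degree of freedom 6.26 to 34.4).

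Values were put on the scale of log2(RPKM + 1), and a gene entered the test when either group averaged 1 RPKM or more (15040 entered, 23675 did not). Middle was compared with Control by limma 3.58.1 in R 4.3.3, with a trend, two-sided, adjusted over all genes tested. The script was tested on simulated data. GC content is that of the longest GENCODE M21 transcript of a symbol. Alternatives were median-of-ratios scaling, a pseudocount of 0.1, no filter, limma-voom on genes with 10 reads or more in 3 libraries, a replicate block, leaving out each library, removing a GC trend (loess, span 0.5) and a level of 5 RPKM. Named by rule were the 10 most abundant rows, up to 10 higher and 10 lower rows with the smallest p among those without overlap, the top row of each family of 4 or more, the listed genes and the rows at the limit. Other rows were named after their values were seen. Rows and lists were chosen with earlier results of these data known.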

Additional observations from a re-analysis of the deposited data

How the results depend on the processing

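The number of rows past an adjusted p under 0.05 was 0 in each of the 13 alternatives. Rows higher in Middle at an unadjusted p under 0.05 numbered 17, with 7 to 18 when 1 library was left out (4.40% to 14.8% of all genes). They numbered 24 with limma-voom (10.1% of all genes) and 9 under the replicate block (7.25% of all genes). At a level of 5 RPKM or more they were 9 of 47 rows (19.1%, against 11.7% of all genes). Lower rows numbered 3, with 1 to 6 when 1 library was left out (5.20% to 11.2% of all genes). They numbered 6 under median-of-ratios scaling (11.4% of all genes) and 5 with limma-voom (7.76% of all genes). The replicate block gave 1 (7.83% of all genes) and removal of the GC trend 5 (9.98% of all genes). Removing the GC trend and Middle replicate 1 together, added after the data were seen, gave 6 higher and 4 lower (7.40% and 8.60% of all genes). The median log2 fold change of 0.049 was 0.028 under median-of-ratios scaling, 0.028 with the GC trend removed (0.031 also without Middle replicate 1), 0.069 with a pseudocount of 0.1 and 0.073 with limma-voom. A further setting, also added after the data were seen, left out rows that share 10% or more of their exon bases and the 2 that are not transporters. The 116 rows gave 15 higher and 2 lower (12.9% and 1.72%, against 11.7% and 9.02% of all genes). The cause of these moves was not tested.

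Of the 41 rows named by rule 30 kept their sign in every alternative and 11 did not, all with a log2 fold change of at most 0.18 in size. Rows named after their values were seen are not in this count. Over the fits that left out 1 library the log2 fold change ran from -0.038 to 0.026 for Slc22a16, -0.086 to 0.046 for Slc25a31, -0.033 to 0.0398 for Slc25a35, -0.033 to 0.097 for Slc25a39 and -0.059 to 0.069 for Slc25a4. It ran from -0.042 to 0.056 for Slc26a8, -0.015 to 0.062 for Slc2a5, -0.081 to 0.0094 for Slc6a6 and -0.30 to 0.0097 for Slco6d1. Under median-of-ratios scaling Slc25a35 was at -0.0204, Slc25a4 at -0.017, Slc26a8 at -0.023 and Slc2a5 at -0.0066. With the GC trend removed Slc12a7 was at -0.0065, Slc25a31 at 0.067, Slc25a35 at -0.042, Slc25a39 at -0.047, Slc25a4 at -0.028, Slc26a8 at -0.0084, Slc2a5 at -0.028 and Slc5a2 at -0.0034. With Middle replicate 1 left out as well, Slc22a16 was at 0.0081, Slc25a31 at 0.025, Slc25a35 at -0.065, Slc25a39 at -0.0901, Slc25a4 at -0.085, Slc2a5 at -0.00083, Slc5a2 at -0.0047 and Slco6d1 at 0.044.

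Libraries with the same replicate number did not deviate together (correlations -0.153, -0.119 and 0.0054). Between libraries with different numbers the correlations ran from -0.091 to 0.16. A pairing that moved few genes would not show in such values, so whether the numbers pair the samples is unknown here. The replicate block gave 9 higher and 1 lower row. Reads limit the rows near 1 RPKM, where a library held as few as 71 reads.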
